A study of Mus musculus with 6 samples.

Results

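The extracellular matrix of the ovarian follicle was examined through 45 listed genes of collagens, laminins, elastic fibres, proteoglycans, crosslinking enzymes, metalloproteinases and their inhibitors. The genes were taken by symbol from a list, with no threshold on their values, and 44 of the 45 were measured among 18193 genes tested. The list was chosen with earlier results of these data known, so its shares beside those of all genes are descriptions and not tests. Fbn1 was not analysed here. Secondary follicles from the ovaries of female C57BL/6J mice, obtained as specific pathogen-free, were measured on Affymetrix 3' expression arrays. There were 3 samples from young mice aged 9 weeks and 3 from old mice aged 32 weeks. From genes of the virus response that were higher in old samples, the study raises the possibility that the mice were infected by viruses. It also names as possible that innate immune genes rise with aging, and proposes that innate immunity may matter in ovarian aging. None of this was tested here. No treatment, transgene or deleted gene was part of either group. Per the methods of the study, follicles with an intact basal membrane and a central oocyte were dissected with needles from ovaries freed of adhering tissue. The titles call the samples of an age biological replicates, but how many mice or follicles stood behind each is not stated, and the p-values rest on the spread between these samples alone. Each gene is described by its brightest probe set, a set of short probes that read the transcript near its 3' end, and values are log2 of the intensities that the authors made with RMA, a method of background correction, quantile normalization and summary. The level of 1 gene's probe set cannot be set against another's, because probes differ in how well they bind.

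The matrix of a follicle has several layers. A basement membrane of collagen IV, laminin, nidogen and perlecan surrounds the granulosa cells and is remodelled as the follicle grows, while collagens I and III, fibronectin and elastic fibres lie in the theca and stroma outside it. Fibrillar collagens give tensile strength, elastic fibres give recoil, small proteoglycans such as decorin and lumican control the thickness of collagen fibrils, and metalloproteinases with their tissue inhibitors set how fast the matrix is broken down.

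The granulosa markers Amh and Foxl2 were at 10.04 and 11.42 in young samples and at 9.86 and 11.30 in old ones (mean log2 intensity), and the oocyte marker Gdf9 was at 12.26 and 12.06, so the labelled tissue carried its defining markers in both groups. Of the matrix genes, 39 had a mean at or above 4.94, the median of all probe sets. Means of the matrix genes ran from 3.33 for Col14a1 to 10.62 for Col3a1. The 3' probe set of Gapdh exceeded its 5' probe set by 0.47 ± 0.014 on the young arrays and by 1.51 ± 0.0048 on the old ones, and that of beta-actin by 1.48 ± 0.033 and 2.53 ± 0.050 (log2, SD, n = 3 each, exact two-sided permutation test, p = 0.1 for both, the smallest p that this design allows). This sign of RNA quality therefore separated the same arrays as age did, and its part in the results below was not tested.

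Promoter sequences of the RefSeq table (GRCm38.p6), from 250 bases before to 50 after the start of the transcript, were found for 28 of the 45 genes. Among the 45, Efemp1 is shown because it changed most, and Timp1 because it is the inhibitor that passed at its brightest probe set. Col4a5 is shown because it changed most of the basement membrane collagens among them. Capitals mark the letters TGANTCA (the AP-1 motif), TGANTAA (a close variant, added after the Timp1 sequence was read), GGGCGG (Sp1), TATAAA and CCAAT on either strand, and no motif overlapped another in these windows.
Efemp1, chr11:28852955-28853254, plus strand: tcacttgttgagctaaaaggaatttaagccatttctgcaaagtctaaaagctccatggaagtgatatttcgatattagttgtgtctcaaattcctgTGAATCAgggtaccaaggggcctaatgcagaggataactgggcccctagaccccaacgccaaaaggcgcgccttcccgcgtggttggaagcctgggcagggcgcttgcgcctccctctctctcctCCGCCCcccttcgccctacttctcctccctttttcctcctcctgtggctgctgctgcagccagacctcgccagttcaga
Timp1, chrX:20869916-20870215, plus strand: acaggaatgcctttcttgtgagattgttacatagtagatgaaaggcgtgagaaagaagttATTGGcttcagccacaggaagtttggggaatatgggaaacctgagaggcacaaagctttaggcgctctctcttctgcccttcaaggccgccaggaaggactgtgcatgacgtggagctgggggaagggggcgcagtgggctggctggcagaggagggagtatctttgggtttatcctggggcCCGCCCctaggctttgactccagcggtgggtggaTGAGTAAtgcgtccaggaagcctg
Col4a5, chrX:141475169-141475468, plus strand: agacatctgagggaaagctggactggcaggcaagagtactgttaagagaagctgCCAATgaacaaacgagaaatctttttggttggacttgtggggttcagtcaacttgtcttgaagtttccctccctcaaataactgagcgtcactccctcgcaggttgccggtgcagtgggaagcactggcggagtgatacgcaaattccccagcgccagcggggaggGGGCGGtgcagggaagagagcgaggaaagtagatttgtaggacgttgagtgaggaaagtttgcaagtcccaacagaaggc

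Col4a1 and Col4a2 lie head to head on opposite strands, with starts 21 bases apart. By these starts the first bases of the 2 transcripts overlap, with no gap between the genes. Their windows share 78 bases, shown on the plus strand because both genes start within them, with the same motifs in capitals.
Col4a1 and Col4a2, chr8:11312777-11312854: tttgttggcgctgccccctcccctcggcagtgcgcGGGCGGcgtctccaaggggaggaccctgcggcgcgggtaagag

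In the Efemp1 window the loose AP-1 letters, here TGAATCA, began at position -154, counted from the start of the transcript. In the Timp1 window the variant began at position 26, after the start. TGANTCA was present in 2 of the 28 genes, Efemp1 and Col6a1, and in 7.81% of 32851 windows of the table. The variant was present in 3 of the 28, Timp1, Col3a1 and Lamb2, and in 10.6% of all windows. GGGCGG was present in 20 of the 28 and in 35.7% of all windows, CCAAT in 12 and in 37.4%, and TATAAA in 2 and in 13.6%. These matches are descriptions of the letters and not sites of binding.

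With age, matrix genes of the follicles moved in both directions, and most changes were under a fold of 2. With a minimum fold of 2 and adjusted p up to 0.05 (limma, Benjamini-Hochberg over all genes tested), 3 of 44 were higher in the old samples, Efemp1, Mfap5 and Mgp, against 0.638% of all genes, and none was lower, against 0.126%. By adjusted p alone (up to 0.05), 12 of 44 were higher (27.3%) and 14 were lower (31.8%), against 10.1% and 13.3% of all genes. In all, 26 of 44 passed (59.1%), against 23.4% of all genes. Among genes at or above the median level, 23 of 39 matrix genes passed (59.0%), against 29.1% of all such genes. The 3 old values lay wholly above or wholly below the 3 young values in 30 of 44 genes (68.2%), against 42.5% of all genes. The median log2 fold change was 0.0037 over the matrix genes and -0.0042 over all genes. SAM, the test that the methods of the study name, was written anew here from its published description and run on the brightest probe sets. It is not the run of the study. It also called none lower at the fold of 2, while dimmer probe sets of Col4a5 and Lamb1, given below, were lower past that fold in limma. At an unadjusted p under 0.05 in limma, 16 matrix genes were lower. Without young replicate 2 the count of higher matrix genes was 7 in place of 12, and that of lower ones was 10 in place of 14. Over all genes that fit gave 1145 higher in place of 1835 and 1516 lower in place of 2422.

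**Figure D1:**
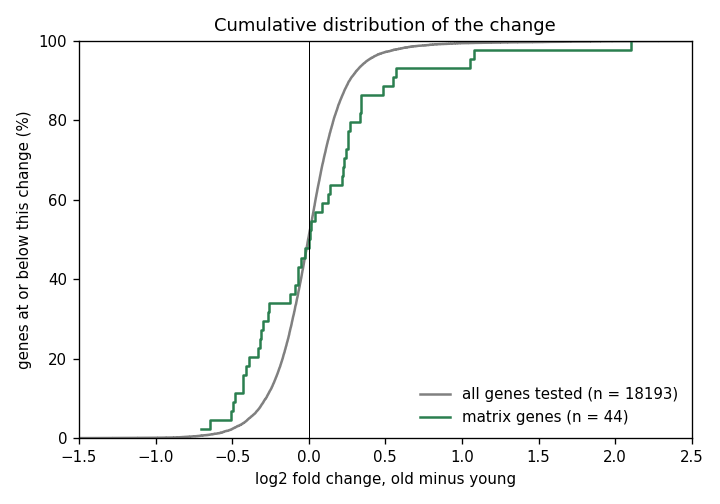
Cumulative share of genes (vertical axis, percent) at or below each log2 fold change of old minus young samples (horizontal axis), for the 44 matrix genes and all 18193 genes tested. The curves cross near 0, with medians of 0.0037 and -0.0042, and the matrix genes spread further to both sides.

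**Figure D2:**
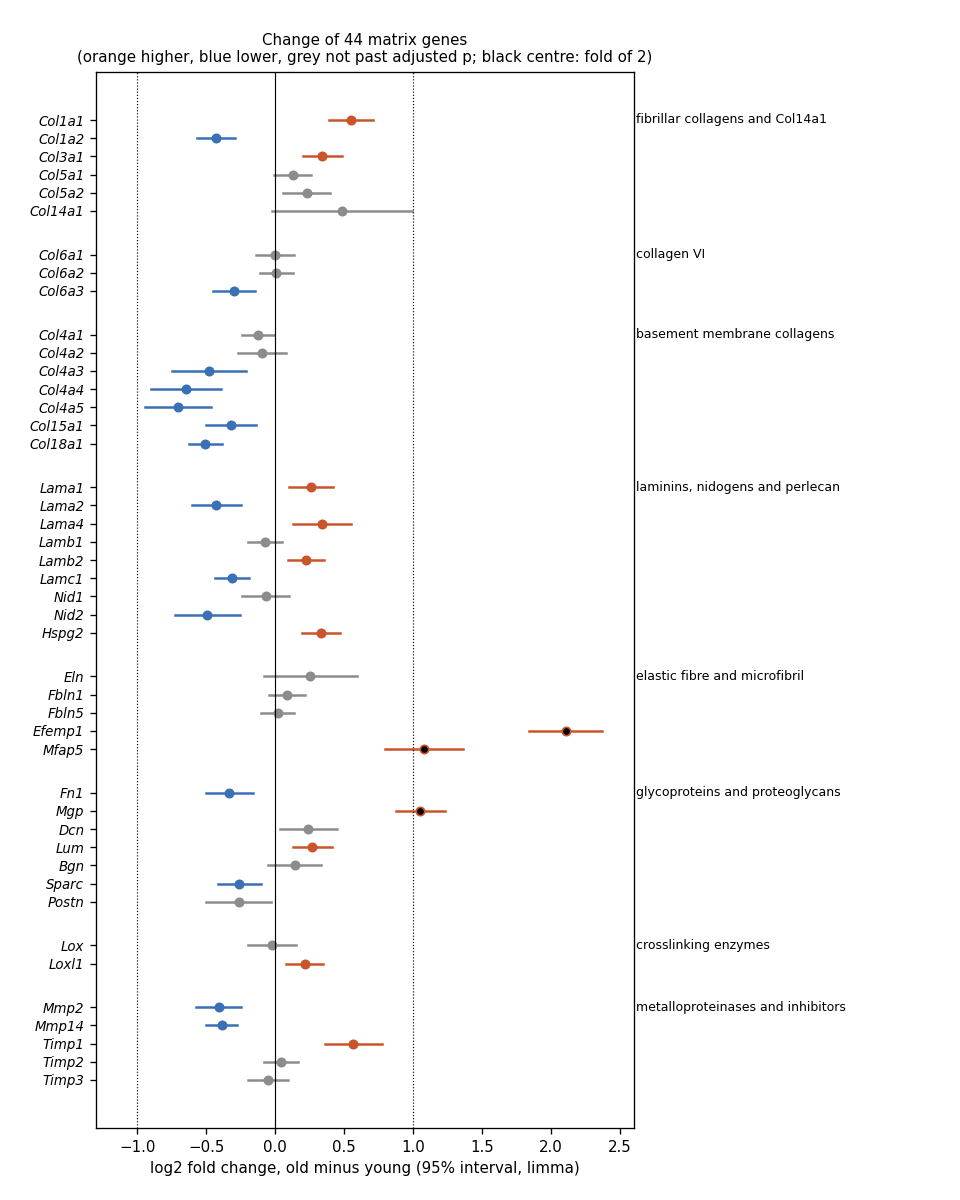
Log2 fold change of old minus young samples (horizontal axis, point and 95% interval from limma, n = 3 samples each) for each of the 44 matrix genes by group. Orange genes were higher and blue genes lower by adjusted p, and the black centres mark Efemp1, Mfap5 and Mgp, past a fold of 2 at the dotted line.

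Among the elastic fibre and microfibril genes, 2 of 5 measured were higher in follicles of old mice and none was lower. Efemp1, the gene of fibulin-3, a secreted glycoprotein of basement membranes and elastic tissue, was at 3.07, 3.12 and 3.07 in the young and at 5.18, 4.96 and 5.44 in the old samples (log2 intensity). Every old value was far above every young value, with a change of 2.11 on the log2 scale (standard error 0.11, adjusted p = 5.1e-05 by limma). All 3 young arrays had Efemp1 under their lower quartile of probe sets, which lay between 3.13 and 3.24 over the 6 arrays, so the young level was near the bottom of the scale and the fold of 4.30 rests on it. Efemp1 had no other probe set to compare. Mfap5, which encodes a glycoprotein bound to fibrillin microfibrils, was at 4.49, 4.15 and 4.45 in the young and at 5.43, 5.63 and 5.26 in the old samples. Its groups did not overlap, and its change was 1.08 on the log2 scale (standard error 0.12, adjusted p = 0.0014). The dimmer of its probe sets rose from 4.01 to 4.67, by 0.66 on the log2 scale (adjusted p = 0.012 over all probe sets). The call of Mfap5 at a fold of 2 was lost with all its probe sets averaged (0.87), without young replicate 2 (0.97) and without old replicate 2 (0.98), each with an adjusted p under 0.05. Eln, the gene of elastin itself, was at 5.04 ± 0.27 and 5.29 ± 0.17 with overlapping groups (0.25, 95% interval -0.08 to 0.59). Fbln5, needed for elastin to assemble, was at 0.02 (interval -0.10 to 0.14), and Fbln1, a fibulin of basement membranes and elastic fibres, at 0.08 (interval -0.05 to 0.21). Changes of a fold of 2 in these genes lay outside their intervals.

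Mgp, the gene of matrix Gla protein, an inhibitor of calcification, had the next largest rise. It was at 9.13, 8.99 and 8.88 in the young and at 10.04, 10.12 and 10.001 in the old samples, a change of 1.05 on the log2 scale (standard error 0.08, adjusted p = 0.00021 by limma). The old samples lay together well above the young ones. Without young replicate 3 its change was 0.99 and it was no longer called at a fold of 2. Of the small leucine-rich proteoglycans, Lum rose by 0.27 (standard error 0.06, adjusted p = 0.019). Dcn went from 8.16 ± 0.086 to 8.40 ± 0.16 (0.24, adjusted p = 0.094), and Bgn was at 7.90 ± 0.078 and 8.04 ± 0.14 with overlapping groups (0.14, adjusted p = 0.25). The groups of Dcn and Lum did not overlap. Fn1, the gene of fibronectin, which binds cells to collagen, fell by 0.33 on the log2 scale, from 6.54 ± 0.077 to 6.21 ± 0.11 (adjusted p = 0.018). Sparc, a collagen-binding matricellular protein, fell by 0.26 (adjusted p = 0.031), from 9.76 ± 0.11 to 9.499 ± 0.044. With the probe sets of a gene averaged, Fn1 and Sparc were at -0.15 and -0.09 and did not pass. Lum did not pass without young replicate 2 or old replicate 3, Fn1 without young replicate 1 or 2, and Sparc without young replicate 1 or 2 or old replicate 1 or 3. Postn, the gene of periostin, was at 4.35 ± 0.19 and 4.09 ± 0.085 and did not pass (-0.26, adjusted p = 0.099).

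**Figure D3:**
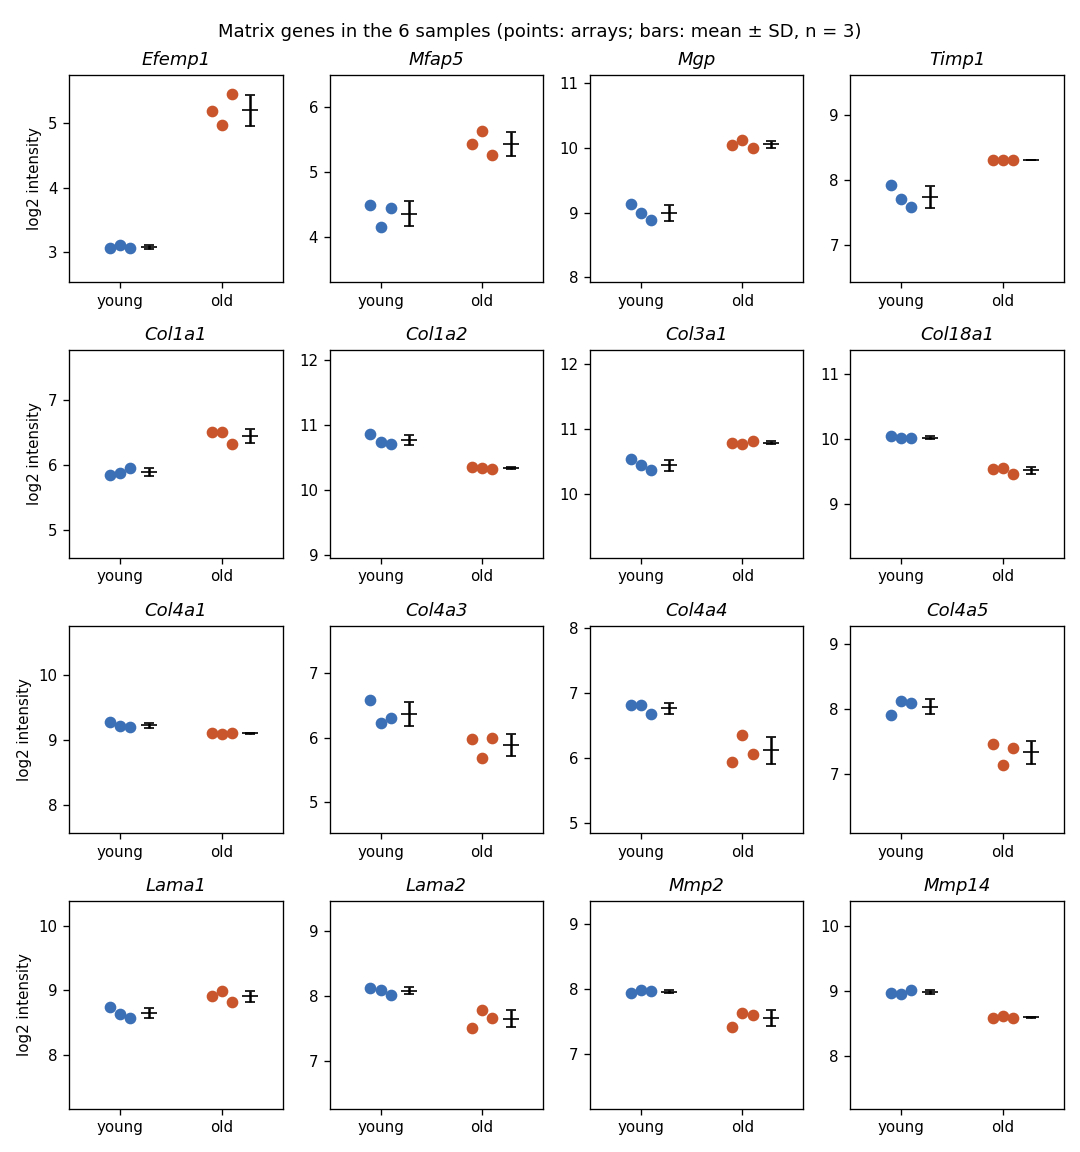
Log2 intensity (vertical axis, the same span of 3.2 in each panel) of 16 matrix genes on the 3 young and 3 old arrays, with 1 point per array and bars at the mean ± SD. Efemp1 shows the widest gap between the ages, Col4a1 a gap of 0.13, and Col1a1 and Col1a2 move in opposite directions.

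Surface epithelium markers rose in the same samples as Efemp1, Mfap5 and Mgp. Of 9 markers, 8 were higher by adjusted p, and the keratin genes Krt7 (1.63) and Krt19 (1.55) and the uroplakin genes Upk3b (1.17) and Upk1b (1.04) reached a fold of 2 (log2 fold changes, adjusted p from 1.1e-04 to 0.0035 by limma). Their summed intensity was between 871 and 905 in the young and between 1236 and 1314 in the old samples. By its young mean none of the 9 was under the lower quartile of the arrays, but the dimmest, Msln, was under it on young replicate 1 at 3.01, with 3.27 on both other young arrays and a mean of 3.81 on the old ones. Of 11 smooth muscle and pericyte markers, 7 were higher and 1 of them, Tagln (1.06), reached a fold of 2, with sums between 1015 and 1089 in the young and between 1525 and 1571 in the old samples. Of 12 macrophage markers 7 were higher and 1 was lower, with sums from 414 to 423 and from 584 to 614. Mpeg1 (1.30) was the macrophage marker past a fold of 2. Stromal fibroblast markers split, with 4 of 10 higher and 2 lower, and their sums were from 1964 to 2049 in the young and from 1917 to 1952 in the old samples. Such a sum is led by the brightest probe sets. The mean log2 intensity of the stromal list, less its young mean, was higher on the old arrays. It was from -0.04 to 0.04 on the young arrays and from 0.07 to 0.12 on the old ones. The stromal genes with the smallest p were Gsn (0.53), Ifitm1 (-0.32) and Nr2f1 (0.54), the last of them under the lower quartile in both groups. Endothelial markers were higher in 5 of 11 and lower in 1, with sums from 423 to 427 and from 513 to 553. Esam (0.57), Cldn5 (0.53) and Emcn (-0.50) had the smallest p among them. Of 8 theca and steroidogenic markers 3 were higher, Star (1.87), Cyp11a1 (1.34) and Aldh1a1 (0.50), with sums from 7027 to 7238 and from 7745 to 7999. Of 11 granulosa markers 2 were lower, Gatm (-0.75) and Wt1 (-0.31), with sums from 33561 to 34533 and from 33358 to 34487. The mean log2 intensity of this list, less its young mean, was from -0.0075 to 0.0044 on the young arrays and from -0.11 to -0.05 on the old ones. Of 11 oocyte markers 9 were lower, with the smallest p for Zp3 (-0.54), Kit (-0.49) and Nlrp5 (-0.33) and the furthest fall for Bmp15 (-0.63), and with sums from 29848 to 30701 and from 25872 to 26319. In bulk samples like these, fewer cells of a type and less RNA per cell cannot be told apart. The part of these markers in the changes of the matrix genes was not tested.

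**Figure D4:**
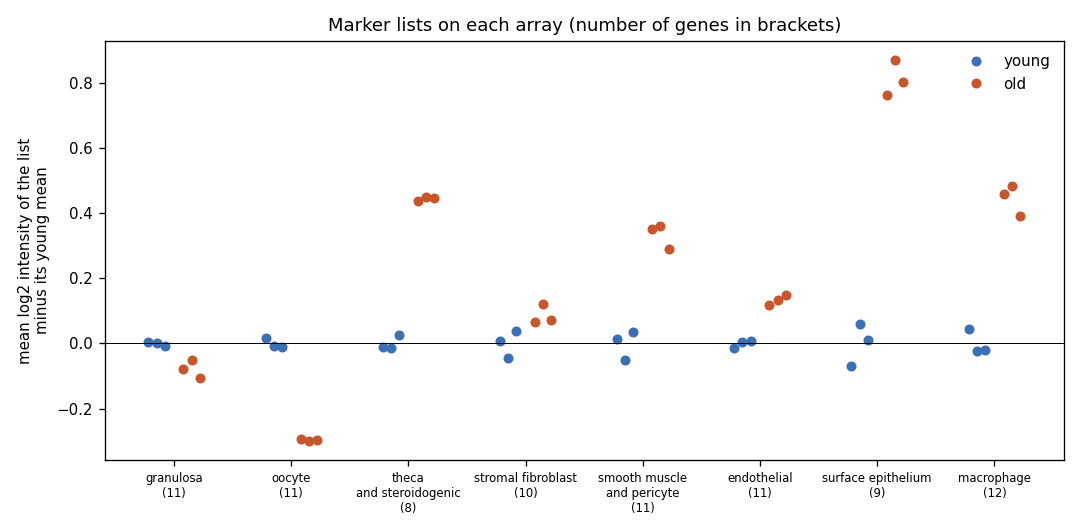
Mean log2 intensity of each marker list minus its mean over the young arrays (vertical axis), with 1 point per array, for 8 cell type lists written from general knowledge. The old arrays lie highest for surface epithelium, at 0.76 to 0.87, and below the young arrays for oocyte markers, at -0.29 to -0.30.

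The fibrillar collagens did not move together in follicles of old mice, with 2 of 6 genes of their group higher and 1 lower. Col1a1 and Col1a2 encode the chains that join into collagen I, the main collagen of connective tissue. Col1a1 was at 5.84, 5.87 and 5.96 in the young and at 6.50, 6.50 and 6.33 in the old samples, a change of 0.55 on the log2 scale (standard error 0.07, adjusted p = 0.0020 by limma). Col1a2 was at 10.86, 10.74 and 10.71 in the young and at 10.36, 10.34 and 10.32 in the old samples, a change of -0.43 on the log2 scale (standard error 0.06, adjusted p = 0.0029). Every old sample was above the young samples for Col1a1 and below them for Col1a2. Col1a1 minus Col1a2, with each gene taken relative to its young mean, differed by 0.98 between the ages (standard error 0.09, exact two-sided permutation test, p = 0.1). The other probe set of Col1a1 was also higher (0.23, adjusted p = 0.027 over all probe sets). Col1a2 had another probe set at 9.10 and 8.31 in young and old samples (-0.79, adjusted p = 0.0026) and a dim one at 3.53 and 3.90 that was higher (0.36, adjusted p = 0.015). Without probe sets shared between transcripts, Col1a2 was at -0.79.

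Col3a1, the collagen that forms fine fibrils with collagen I, rose by 0.34 (standard error 0.06, adjusted p = 0.0069), from 10.53, 10.44 and 10.37 to 10.78, 10.77 and 10.82. Its dimmer probe set rose by 0.62. Col5a1 and Col5a2, which start collagen I fibrils, were at 0.13 (adjusted p = 0.15) and 0.23 (adjusted p = 0.060) at their brightest probe sets, each with groups that did not overlap. Dimmer probe sets of Col5a1 were at -0.0026 and -0.12, with overlapping groups. That of Col5a2 was at -0.11, with all old values below all young values, and none of these passed. With all probe sets averaged Col5a1 was at 0.0022 and Col5a2 at 0.06. Col14a1, a collagen on the surface of fibrils, was dim at 3.09 ± 0.37 and 3.57 ± 0.34, with overlapping groups. In collagen VI, which forms beaded filaments around cells, Col6a3 fell by 0.30 on the log2 scale (standard error 0.07, adjusted p = 0.017), from 9.36 ± 0.090 to 9.07 ± 0.057. Col6a1 and Col6a2 were at 9.73 and 9.23 in the young and at 9.72 and 9.24 in the old samples, with 95% intervals of the change from -0.14 to 0.14 and from -0.11 to 0.13. Col6a3 did not pass without young replicate 2, without old replicate 1 or without old replicate 3, where it was between -0.30 and -0.27.

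The basement membrane collagens were lower or did not pass, with 5 of 7 lower and none higher in follicles of old mice. The median log2 fold change of the 7 genes was -0.48, beside -0.0042 over all genes. Col4a1 and Col4a2, whose products form the collagen IV network of nearly all basement membranes, were at -0.13 (interval -0.24 to -0.01, adjusted p = 0.11) and -0.09 (interval -0.27 to 0.08, adjusted p = 0.41). Col4a3, Col4a4 and Col4a5 encode the chains of a more specialized collagen IV network, known from the kidney, the inner ear and the eye. Col4a5 was at 7.91, 8.12 and 8.09 in the young and at 7.47, 7.14 and 7.41 in the old samples, a change of -0.70 on the log2 scale (standard error 0.10, adjusted p = 0.0037 by limma). Col4a4 was at 6.81, 6.81 and 6.67 in the young and at 5.94, 6.35 and 6.06 in the old samples (-0.65, standard error 0.11, adjusted p = 0.0060). Col4a3 was at 6.57, 6.23 and 6.30 in the young and at 5.97, 5.69 and 6.00 in the old samples (-0.48, standard error 0.12, adjusted p = 0.024). In each of these genes all old values lay below all young values. Taken relative to Col4a1 on the same arrays, Col4a3 differed by -0.35, Col4a4 by -0.52 and Col4a5 by -0.58 between the ages (standard errors 0.13 each, exact two-sided permutation test, p = 0.1 for each). These differences hold for the brightest probe sets only. The dimmer probe set of Col4a1 fell further, by 0.31 (adjusted p = 0.071 by limma over all probe sets), with all old values below all young values. With both averaged Col4a1 was at -0.22 (adjusted p = 0.053).

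The probe sets of these collagens did not all move alike. Col4a5 had another probe set that went from 6.64 to 5.45, past a fold of 2 (-1.19, adjusted p = 6.5e-05 over all probe sets), and the other of Col4a3 was at -0.40 (adjusted p = 0.013). The dimmer probe sets of Col4a4 were at -0.04 and 0.06 and did not pass, and with all probe sets averaged Col4a4 was at -0.21. Col4a3 did not pass without young replicate 1 or without old replicate 2, at -0.38 in each. Col4a6, which joins Col4a5 in a further network and lies outside the 45 genes, was at 6.23 and 5.79 in young and old samples (-0.44, standard error 0.08, adjusted p = 0.0093).

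Col18a1, whose product carries endostatin at its end and lies in basement membranes of vessels and epithelia, was at 10.05, 10.01 and 10.02 in the young and at 9.54, 9.56 and 9.46 in the old samples. It fell by 0.51 on the log2 scale (standard error 0.05, adjusted p = 0.00098 by limma), with a gap between the groups many times their SDs of 0.019 and 0.053. Its other probe set fell by 0.57. Col15a1, the related collagen at the outer face of basement membranes, fell by 0.32 (adjusted p = 0.025), from 5.65 ± 0.0052 to 5.33 ± 0.15. It did not pass when any of the 3 young samples or old replicate 3 was left out, and was then between -0.34 and -0.32.

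Laminins, nidogens and perlecan split by chain, with 4 of 9 genes higher and 3 lower. Laminin is built of an alpha, a beta and a gamma chain. Of the alpha chains, Lama1 rose by 0.26 (standard error 0.07, adjusted p = 0.033), from 8.74, 8.63 and 8.58 to 8.92, 8.98 and 8.82. Lama2, the alpha chain best known from muscle, fell by 0.43 (standard error 0.08, adjusted p = 0.0082), from 8.12, 8.08 and 8.02 to 7.51, 7.77 and 7.66. Lama1 minus Lama2, each relative to its young mean, differed by 0.68 between the ages (standard error 0.08, exact two-sided permutation test, p = 0.1). Lama4, the alpha chain of vessel walls, rose by 0.34 (adjusted p = 0.032), but its dim other probe set was at -0.07 and with both averaged the gene was at 0.14 and did not pass. Of the beta chains, Lamb2 rose by 0.22 (adjusted p = 0.025), and Lamb1 was at 10.57 and 10.49 in young and old samples (-0.07, interval -0.20 to 0.05). Lamc1, the gamma chain of most laminins, fell by 0.31 (standard error 0.05, adjusted p = 0.0066) from 7.28 ± 0.036 to 6.97 ± 0.050, but its dim other probe set was at 0.0026 and with both averaged the gene was at -0.15 and did not pass (adjusted p = 0.085).

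Nid2, a nidogen that links laminin to collagen IV, fell by 0.49 (standard error 0.10, adjusted p = 0.014), from 4.99, 4.899 and 4.76 to 4.21, 4.57 and 4.39. Nid1 was at 8.01 and 7.94 in young and old samples, and its change of -0.07 had an interval from -0.24 to 0.10. Hspg2, the gene of the heparan sulfate proteoglycan perlecan, rose by 0.33 (standard error 0.06, adjusted p = 0.0073), from 7.19, 7.07 and 7.05 to 7.41, 7.45 and 7.45. Its other probe set was at 0.15 (adjusted p = 0.16 over all probe sets), which is also its value without shared probe sets. Several of the laminin calls were near the threshold. Lama1 and Lamb2 did not pass by SAM, and each lost its call in 4 of the 6 fits that left out 1 sample, among them those without young replicate 2, young replicate 3 and old replicate 1. Lama4 lost its call without young replicate 1, young replicate 2, old replicate 2 or old replicate 3.

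Of the 5 listed metalloproteinases and inhibitors, Mmp2 and Mmp14 were lower and the inhibitor Timp1 was higher, while other matrix proteases moved both ways. Mmp14, a metalloproteinase anchored in the cell membrane that activates the product of Mmp2, was at 8.97, 8.96 and 9.02 in the young and at 8.59, 8.61 and 8.60 in the old samples. It fell by 0.39 on the log2 scale (standard error 0.05, adjusted p = 0.0021 by limma), with replicates closer than 0.1 in both groups. Mmp2, the gelatinase that cleaves collagen IV, fell by 0.41 (standard error 0.07, adjusted p = 0.0065), from 7.93, 7.99 and 7.97 to 7.42, 7.64 and 7.61. Timp1, a secreted inhibitor of metalloproteinases, rose by 0.57 (standard error 0.09, adjusted p = 0.0046), from 7.93, 7.70 and 7.59 to 8.31, 8.30 and 8.31. All 3 genes had groups that did not overlap at these probe sets. Mmp2 had another, nearly as bright at 7.845 in young and 7.599 in old samples, with overlapping groups. Its change did not pass (-0.25, adjusted p = 0.0999 by limma over all probe sets). Dimmer probe sets of Mmp14 were at -0.05, which did not pass, and at -0.55, which was lower (adjusted p = 0.012). Timp1 minus Mmp14 differed by 0.96 between the ages (standard error 0.11) and Timp1 minus Mmp2 by 0.98 (standard error 0.13), with p = 0.1 for each in an exact two-sided permutation test. Timp2 and Timp3, the other inhibitors listed, were at 0.04 (interval -0.08 to 0.16) and -0.05 (interval -0.20 to 0.09) at their brightest probe sets. Of the crosslinking enzymes, Loxl1, which acts on elastin, rose by 0.21 (adjusted p = 0.034), and Lox, which acts on collagen and elastin, was at 5.64 and 5.62 in young and old samples. Loxl1 did not pass by SAM, with its probe sets averaged (0.08) or with any 1 of 5 samples left out, old replicate 1, 2 or 3 or young replicate 2 or 3. The 7 differences between genes given here for the collagens, laminins and inhibitors were chosen after their values were seen, and adjusting the exact permutation p over the 7 left each at 0.1.

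Dimmer probe sets of the matrix genes were more often lower than higher. Of the 44 genes, 31 had several probe sets, with 49 probe sets besides the brightest. Over all probe sets with 1 gene, 8.95% were higher and 13.8% were lower by adjusted p, and of these 49, 5 were higher and 12 lower. The 2 that reached a fold of 2 were lower, in Col4a5 (-1.19) and Lamb1. Lamb1 had probe sets at -0.07, -0.34, -1.01 and -0.01 from the brightest to the dimmest, so its answer depended on the probe set. Timp2 had probe sets at 0.04 and 0.13 that did not pass and dimmer ones at -0.37 and -0.27 that were lower. Timp3 had a probe set nearly as bright as its brightest that was lower (-0.29, adjusted p = 0.017 over all probe sets), Nid1 had one at -0.45 (adjusted p = 0.042) and Col6a2 one at -0.23 (adjusted p = 0.042). Of 16 genes whose brightest probe set passed and that had a next one, the next passed with the same sign in 7, did not pass in 9 and passed with the opposite sign in none. Its sign was the same in 12 of the 16. The excess of 3' over 5' signal was larger in the old arrays by 1.04 for Gapdh and 1.05 for beta-actin. The positions of the probe sets in their transcripts were not analysed here.

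**Figure D5:**
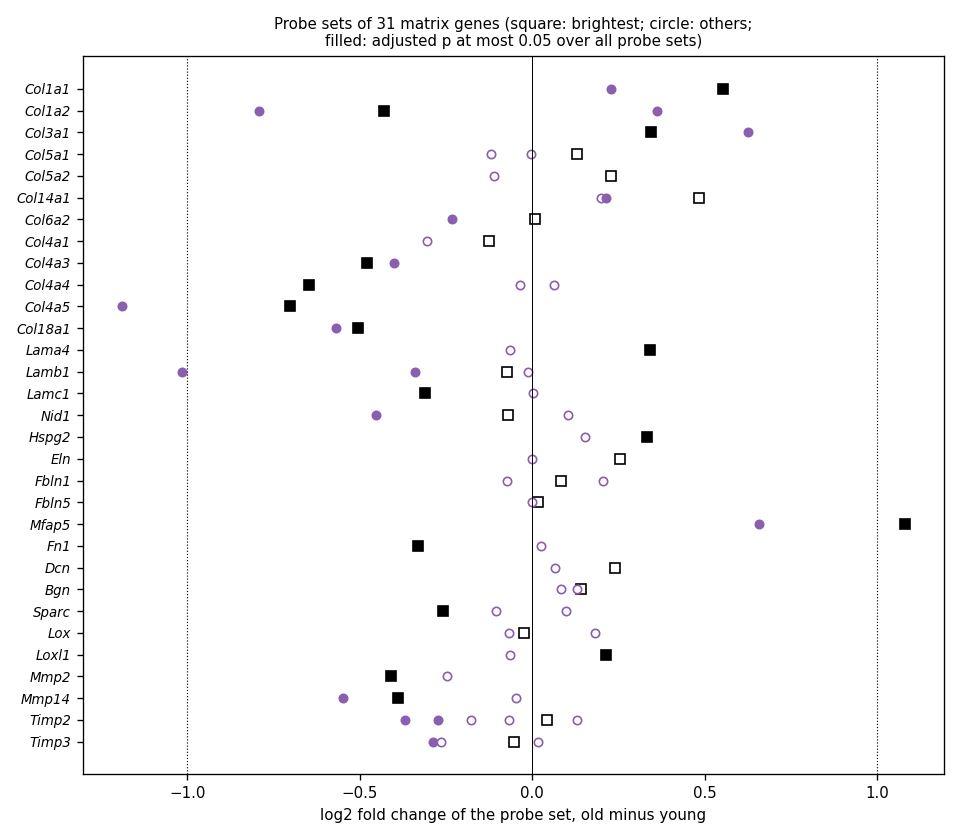
Log2 fold change of old minus young samples (horizontal axis) for each probe set of the 31 matrix genes with several, squares for the brightest and circles for the others, filled where the adjusted p was at most 0.05 over all probe sets. Dotted lines mark a fold of 2, which Mfap5 passed upward at its brightest probe set and Col4a5 and Lamb1 passed downward at dimmer ones.

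Other genes of matrix synthesis, assembly, degradation and reception were taken from lists written from general knowledge. Of 110 measured, none was called at a fold of 2, while by adjusted p 17 were higher and 22 lower, beside 10.1% and 13.3% of all genes, with a median log2 fold change of -0.0028. SAM also gave 0 calls at the fold of 2, and at an unadjusted p under 0.05 in limma 22 were higher and 27 lower. Of 23 collagen-processing genes 2 were higher and 4 lower. P3h3 (-0.51) and P3h2 (-0.47), which hydroxylate proline in collagen, and Mia3 (-0.34), needed to export collagen from the endoplasmic reticulum, had the smallest p among them. In 22 further collagens and basement membrane genes, 2 were higher and 6 lower, among them the laminin chain gene Lama3 (-0.62), Egflam (-0.81), which encodes a ligand of dystroglycan, and the fibril-associated collagen gene Col16a1 (0.32). Of 24 other elastic fibre genes, glycoproteins and proteoglycans 6 were higher and 5 lower, with Fbn2, the fibrillin of developing tissue, at -0.50, the small proteoglycan gene Ogn at 0.68 and Abi3bp at -0.38.

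Of 18 other proteases and inhibitors 4 were higher, Adamts1, Mmp16, Mmp10 (0.26) and Adamts9 (0.23). The 2 lower ones were Mmp11 and the inhibitor Reck (-0.43, adjusted p = 0.031 by limma). Adamts1, a protease of versican that ovulation requires, went from 5.35, 5.56 and 5.47 to 6.09, 6.45 and 6.21 (0.79, adjusted p = 0.0023 by limma). Mmp11 and Mmp16 were at -0.35 and 0.43. Of 23 matrix receptors 3 were higher and 5 lower. Itga1, the integrin subunit that binds collagens, went from 4.94, 4.899 and 5.19 to 5.91, 6.05 and 6.04 (0.99, standard error 0.09, adjusted p = 5.4e-04), without overlap and just under a fold of 2. Mrc2, a receptor that takes up collagen for breakdown, was at -0.54, and Itga6, an integrin subunit for laminin, at -0.30.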

How the data were processed

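RNA of mouse secondary follicles was measured on 6 arrays, 3 from each age. RMA, in a version not given in the sources used here, was run by the authors, who deposited intensity values on a linear scale for 45101 probe sets. As these were not yet on a log scale, log2 was taken first, with no pseudocount. Of the probe sets, 34945 had 1 gene symbol in the array's annotation, brought to RefSeq names (GRCm38.p6) by gene ID, 932 had several and 9211 were not listed. Neither of these kinds entered the gene tests, nor did 64 control probe sets. The brightest probe set over the 6 arrays stood for each of 18193 genes. Old and young samples were compared with limma 3.58.1 in R 4.3.3 (eBayes after lmFit, with two-sided p adjusted over all genes by Benjamini-Hochberg). Thresholds were a fold of 2 and an adjusted p of 0.05, after the study's methods. The probe sets of the matrix genes were tested in a second fit over all 34945. For single values the test was an exact permutation test. The matrix genes and the gene lists were chosen with earlier results of these data known. All 44 measured matrix genes are named, and in the other lists those past a fold of 2 or up to 3 with the smallest p. Besides these, Col4a6, Reck, Mmp10, Adamts9, Bmp15, Msln, Amh, Foxl2 and Gdf9 were named after their values were seen.

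Tested on simulated data drawn with each of the 18193 genes' mean and SD, limma found 99 of 100 genes shifted by a log2 value of 1.5, 57 of 100 shifted by 0.5, and 4 of the genes left as they were, old against young. No other genes were shifted there, while 23.4% of all genes passed in the data. The adjusted p depends on that share, so these counts do not give the recovery in the data. Any 2 arrays shared at most 359 equal values, so none was a copy of another. The number of arrays limits the precision, with a median SD within groups of 0.09 over all genes and 0.08 over the matrix genes. Same-numbered samples were not treated as pairs in the main fit, as the titles name no pairing. The correlations of their deviations from the group means were 0.05, -3.0e-04 and 0.04, which with 3 samples per age cannot exclude one. The tests were repeated with SAM, with the probe sets of each gene averaged or shared ones dropped, without dim genes, after cyclic loess or quantile normalization, with a trended robust prior, with array weights, at a fold of 1.5, with a block for the replicate number and with 1 sample left out at a time. Python 3.11.15 read the sequences.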

Additional observations from a re-analysis of the deposited data

How the results depend on the processing

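Of the 26 matrix genes past the adjusted p, 14 passed under every alternative run in which they were measured, and no passing gene changed its sign. The count of genes at a fold of 2 was 3, and 1 with dim genes left out, because Efemp1 and Mfap5 lay under the filter. At a fold of 1.5, 2 genes were lower, Col4a4 and Col4a5, where none was at a fold of 2. Leaving out each sample gave from 7 to 11 higher genes at the adjusted p, where the full set gave 12. Over all genes the same fits gave from 1137 to 1471 higher, where the full set gave 1835. With the replicate number as a block, 11 were higher and 13 lower, since Loxl1 and Sparc no longer passed, and the 3 genes at a fold of 2 were still called. In young samples 1, 2 and 3 the best match among the old samples was number 1, 3 and 3. With 3 samples per age this cannot settle whether the numbers mark pairs. Of the other 110 genes of the matrix, 1 was higher at a fold of 2 after quantile or cyclic loess normalization or with array weights, and leaving out each sample gave from 0 to 1. At a fold of 1.5, 4 of them were higher and 2 lower. When the probe sets of each gene were averaged, 10 were higher at the adjusted p in place of 17, and leaving out each sample gave from 10 to 14. Normalizing again moved the median of all genes by less than 0.1 on the log2 scale, to 0.0029 by quantiles and 0.0054 by cyclic loess. The 3 arrays per age limit what could be seen, and signal near the lower quartile limits Efemp1 and Col14a1.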
